A study of Sus scrofa with 24 samples.

Results

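The genes described here encode the proteins of the mitochondrial ribosome and were read from poly(A) RNA libraries of sow ileum and colon. They were taken from the deposited count table by symbol, as every row whose name begins with MRPL or MRPS followed by a number, and 76 of the 20674 genes in the table met this rule. The symbols give 48 MRPL and 28 MRPS genes, but the symbol does not always name the subunit. MRPS18A and MRPS30 encode proteins of the large subunit, and the product of MRPS36 belongs to the 2-oxoglutarate dehydrogenase complex and not to the ribosome. By the place of the protein there are 50 large-subunit genes, 25 small-subunit genes and MRPS36. MRPS12 is not among the rows analysed here, and ribosomal proteins whose symbols carry no MRPL or MRPS (DAP3, PTCD3, CHCHD1, AURKAIP1 and GADD45GIP1) were kept apart.

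The mitochondrial ribosome translates the few messages of mitochondrial DNA, all of which encode subunits of the respiratory chain and ATP synthase. Its RNA is transcribed inside the organelle, whereas all of its proteins are encoded in the nucleus, made in the cytosol and imported. Some of these proteins have a bacterial counterpart and others exist only in mitochondria, where they surround a shortened ribosomal RNA. In the gut epithelium oxidative phosphorylation powers nutrient uptake in the ileum, and in the colon it is fed by the oxidation of microbial butyrate.

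The sows were fed from breeding until day 114 of gestation on 1 of 4 diets. Diet LF held 3.73% crude fibre and diet HF held 7.46%, and LN and HN were the same feeds with 0.05% N-carbamylglutamate (NCG), a stable mimic of the metabolite that switches on urea-cycle ammonia fixation. Each diet had 3 libraries from ileum and 3 from colon, 24 libraries in 8 groups, all from female pigs and labelled by tissue only, with no strain, age or tissue layer given. The labels do not state that the 3 libraries of a group came from separate sows, so the p-values measure the spread between libraries, which may be technical. In bulk tissue fewer cells of a kind and less RNA per cell cannot be told apart.

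Total counts per library ran from 11951729 to 19896941 for ileum and from 14843272 to 18575695 for colon. The labelled tissue was checked against marker genes. Of the 12 ileum libraries, HN 2, HF 2 and LF 1 had FABP6, the bile acid carrier of ileal enterocytes, above 500 CPM, and the other 9 had 37.3 CPM or less. In those 9 libraries SLC10A2, the bile acid importer of ileal enterocytes, was also at 0.753 CPM or less, while APOA4, an apolipoprotein made mainly in the upper small intestine, lay between 149.8 and 1319 CPM. In HN 2, HF 2 and LF 1 APOA4 was between 0.358 and 33.1 CPM. The gut segment of the libraries labelled ileum is therefore in doubt, and ileum in what follows means that label, also in the comparison of colon against ileum. Of the colon libraries, HN 1 and LF 2 had VIL1, a brush border protein of epithelium, under 50 CPM (28.7 and 9.09 CPM). Ileum LN 3 stood apart with 1127 CPM of the adipocyte gene ADIPOQ and 5.70 CPM of the proliferation gene MKI67. CPM here is a read count scaled to a common library total (counts per 1000000 reads) after TMM, edgeR's correction for library composition.

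Of the 76 genes, 73 had counts in every library and passed edgeR's filter on low counts in both tissues. The other 3 were MRPL43, listed at 0 in all 24 libraries, MRPL53 with at most 1 read and MRPS7 with at most 3 reads in a library. A count of 0 allows up to 3 reads, which before the TMM correction is 0.151 to 0.251 CPM for ileum libraries and 0.162 to 0.202 CPM for those of colon. The annotated spans of all 3 lie almost wholly inside other genes. MRPS7 is covered 100% by MIF4GD and GGA3, MRPL43 100% by TWNK, and MRPL53 99.9% by TTC31 and CCDC142. Whether reads of these 3 genes were discarded as ambiguous was not tested, and no level is given for them. In all, 20 members (26.3%) overlapped another gene, 17 of them a gene on the opposite strand, against 21.4% of all genes in the table, and the strand setting of the counting is not given in the sources used here.

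The genes were short. The deposited gene length had a median of 1380 bases over the 76 members and 3051 bases over all genes, and 64 of the 73 tested members were shorter than the median tested gene. The shortest was MRPL33 with 560 bases, on chromosome 3 at 111428850 to 111438735 of Sscrofa11.1. MRPL1 (14048 bases, chromosome 8 at 73305444 to 73423524) and MRPS30 (19258 bases, chromosome 16 at 29110736 to 29200865) were the longest. The members were spread over the genome, and 19 of them (25.0%) had a neighbour transcribed away from them whose start lay within 1000 bases, against 8.27% of all genes. Among these head-to-head neighbours were MRPS11 and MRPL46, which face each other across 39 bases on chromosome 1, MRPL47 and the respiratory chain gene NDUFB5 (23 bases), MRPL51 and the condensin gene NCAPD2 (8 bases), and MRPL18 and the chaperonin gene TCP1 (103 bases).

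Levels were compared between genes only per kilobase of the deposited length. The median over the 73 genes was 23.6 CPM per kilobase, and 55 of them lay between 10 and 50. The large-subunit genes had a median of 23.8 (n = 48) and the small-subunit genes one of 20.9 (n = 24). The highest level was that of MRPL12, a stalk protein that recruits elongation factors and also binds the mitochondrial RNA polymerase, with 75.1 CPM per kilobase. MRPS18B followed with 67.5, then MRPL24, at the exit tunnel, with 56.3, MRPL9 with 52.3 and MRPL37 with 51.8. The lowest were MRPS30 with 1.46, MRPS18C with 1.75, MRPL1 with 2.11, MRPS28 with 3.41 and MRPL14 with 4.47. The span from the top to the bottom of this order was 51.3-fold.

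The low end of that order mixed 2 kinds of gene. MRPS30 and MRPL1 had ordinary read counts, 27.4 ± 5.79 and 27.8 ± 8.46 CPM in the ileum (SD, n = 12), spread over annotated lengths far above those of the other members. MRPS18C was low in reads as well, with 2.39 ± 0.501 CPM in ileum and 2.49 ± 0.542 in colon (SD, n = 12). The 3 MRPS18 paralogs, which are related to the same bacterial protein, therefore covered most of the scale, since MRPS18A stood at 34.4 CPM per kilobase. MRPS18C overlaps ABRAXAS1 and HELQ on the opposite strand, and MRPS18B overlaps PPP1R10 there. How much the overlaps took from these levels was not tested.

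**Figure D1:**
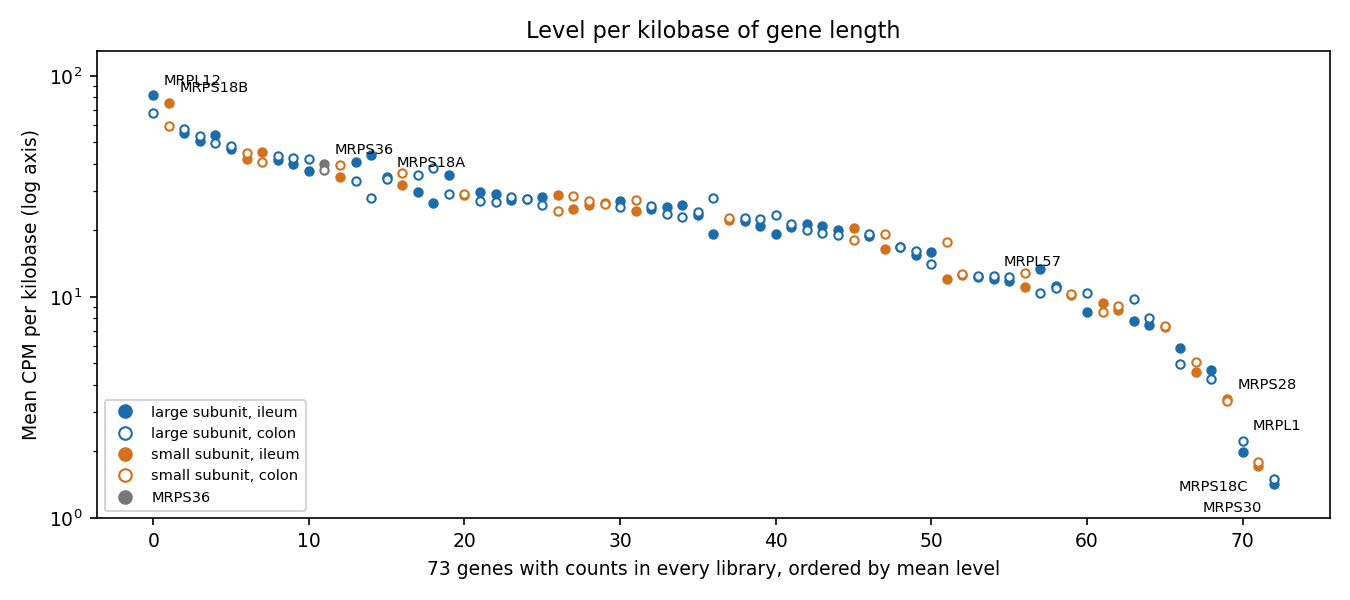
Mean CPM per kilobase of gene length, on a log axis, of the 73 genes with counts in every library, in order of their level. Filled points are the mean of the 12 ileum libraries and open points the mean of the 12 colon libraries; MRPL12 (75.1 over both tissues) and MRPS18B (67.5) lead and MRPS30 (1.46) is last.

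The order of levels was shared by the tissues: across the 73 genes, log2 CPM per kilobase in ileum and colon had a Pearson correlation of 0.986 and a Spearman correlation of 0.965, a description over genes that share libraries and lengths. Summed over all members, the level was 2669 ± 314 CPM in ileum LF, 2222 ± 366 in ileum LN, 2769 ± 509 in ileum HF and 2153 ± 384 in ileum HN (SD, n = 3 each). In the colon the sums were 2641 ± 344 in LF, 2113 ± 242 in LN, 2816 ± 374 in HF and 2273 ± 308 in HN (SD, n = 3 each). The groups without NCG had the higher mean in each tissue and at each fibre level, and fibre made little difference to the sums. The ileum libraries high in FABP6 had the lowest sum of their group in LF (LF 1, 2307 CPM), HF (HF 2, 2195 CPM) and HN (HN 2, 1722 CPM), and the part of this in the group means was not tested. The members took 0.192% to 0.301% of the raw counts of a library.

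The ratio of the 2 subunits was similar across libraries. The summed CPM of the large-subunit genes was 1.84 to 2.20 times that of the small-subunit genes in the 24 libraries, with a median of 2.03. The large-subunit sums without NCG ran from 1464 to 2106 CPM in the ileum with a median of 1906, and those with NCG from 1106 to 1724 with a median of 1417 (6 libraries each). In the colon they ran from 1554 to 2045 with a median of 1776 without NCG, and from 1163 to 1711 with a median of 1392 with NCG. The ranges with and without NCG overlapped in both tissues.

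**Figure D2:**
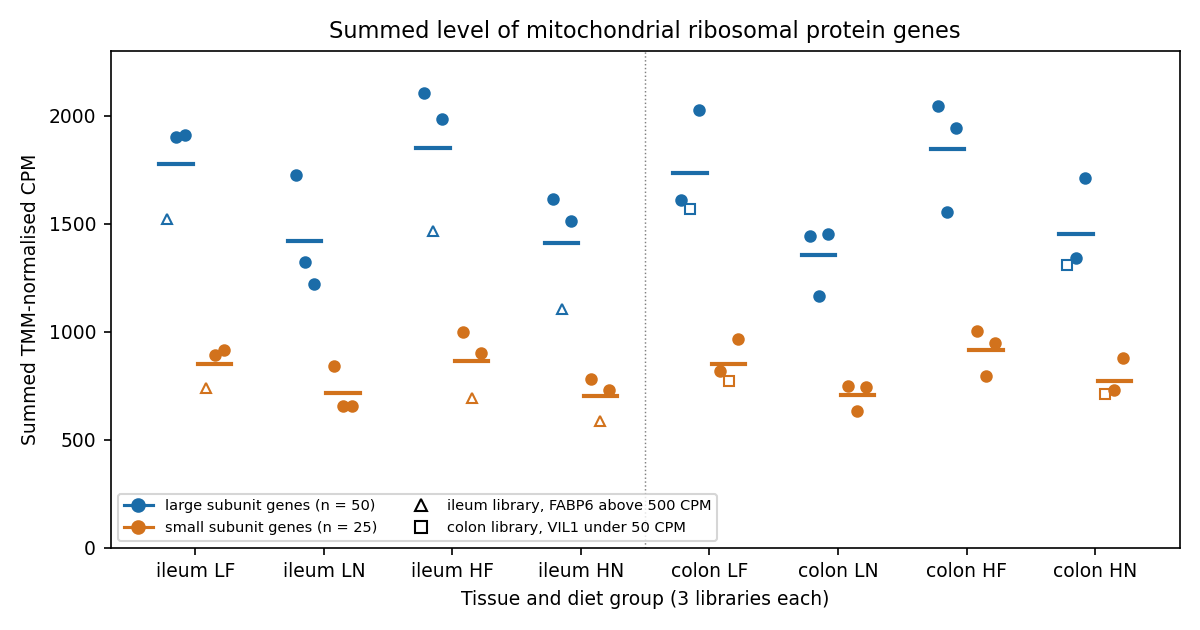
Summed TMM-normalised CPM of the large-subunit genes (blue) and small-subunit genes (orange) in each library, by tissue and diet; points are libraries and lines are means of 3. The groups with NCG (LN and HN) have lower means than LF and HF in both tissues, with overlapping libraries, and open symbols mark the ileum libraries above 500 CPM of FABP6 and the colon libraries under 50 CPM of VIL1.

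The comparison with NCG asks how the supplement changed the ileum, as the average over both fibre levels (LN and HN, 6 libraries, against LF and HF, 6 libraries). Most of the ribosomal protein genes read lower with NCG, but the single genes rarely passed the test. Of the 73 genes, 67 had a negative log2 change, with a median of -0.35 over the 73, an interquartile range of -0.46 to -0.22 and a median standard error of 0.178. Over all 15103 tested genes the median was -0.07 and 55.8% of changes were negative. Past an adjusted p of 0.05 (edgeR quasi-likelihood test, Benjamini-Hochberg over all genes) 1 member was higher, MRPL1, against a background of 5.42% of all genes, and 1 was lower, MRPL57, against 0.43% of all genes (5.85% in either direction). At an unadjusted p under 0.05 there were 31 members, of which 30 were lower, against 21.5% of all genes (12.5% higher and 9% lower). The libraries with and without NCG did not overlap for 7 members, all lower with NCG (MRPL57, MRPL11, MRPL4, MRPS2, MRPL9, MRPL34 and MRPL17), against 1.77% of all genes that separated in the lower and 4.4% in the higher direction.

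MRPL57 encodes a short protein of the large subunit that has no bacterial counterpart, and the gene lies on chromosome 11 at 1320846 to 1321829. It read 12.5, 16.0 and 14.5 CPM in ileum LF, 11.9, 12.9 and 12.1 in HF, 9.30, 10.03 and 5.57 in LN, and 7.91, 5.49 and 8.16 in HN. All 6 libraries with NCG lay below all 6 without it. The log2 change was -0.78 ± 0.19 (SE, adjusted p = 0.0375, edgeR). It lost its call without any 1 of ileum HN 1, HN 2, HN 3, HF 1, HF 2, HF 3, LF 1, LF 2 or LF 3, with adjusted p-values up to 0.102, and kept it without any 1 of the LN libraries. Without the 3 ileum libraries high in FABP6 it had -0.68 (adjusted p = 0.15), and without a filter on low counts its adjusted p was 0.0507 (edgeR). Its span overlaps SKA3 on the opposite strand over 29.2% of its length, and SKA3 itself had -0.30 (adjusted p = 0.476, edgeR).

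MRPL1 was the one member called higher. Its protein forms the mobile stalk past which spent tRNA leaves the ribosome. It read 20.5, 18.9 and 18.5 CPM in ileum LF, 18.4, 22.9 and 28.5 in HF, 37.9, 26.5 and 43.3 in LN, and 34.8, 35.7 and 28.3 in HN. The groups overlapped only through HF 3 and the lowest libraries with NCG. The log2 change was 0.71 ± 0.16 (SE, adjusted p = 0.0260, edgeR). The call was lost without any 1 of ileum HN 1, HN 2, HF 1, HF 2, LN 1, LN 3, LF 2 or LF 3, with adjusted p-values up to 0.0797, and without the 3 ileum libraries high in FABP6 it had 0.73 (adjusted p = 0.116, edgeR). MRPL1 overlaps CNOT6L on the opposite strand over 25.7% of its span, and CNOT6L had 0.37 (adjusted p = 0.415, edgeR).

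The next members by p-value were MRPL11, which sits at the base of the elongation factor stalk, and MRPL4. MRPL11 averaged 42.1 ± 5.4 CPM in ileum LF and 43.8 ± 6.33 in HF, and 25.1 ± 8.04 in LN and 31.1 ± 5.77 in HN (SD, n = 3), a log2 change of -0.61 ± 0.17 (adjusted p = 0.0706, edgeR). MRPL4 had -0.60 ± 0.18 (adjusted p = 0.0840, edgeR). On the positive side MRPL47, an exit tunnel protein, had 0.35 ± 0.22 (adjusted p = 0.380, edgeR), and MRPS36, the dehydrogenase component, 0.31 ± 0.21 (adjusted p = 0.419, edgeR). NDUFB5, the head-to-head neighbour of MRPL47, had -0.44 (adjusted p = 0.290, edgeR).

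By place in the ribosome the medians in the ileum were close. The large-subunit genes had a median log2 change of -0.38 with 44 of 48 negative, and the small-subunit genes one of -0.27 with 23 of 24 negative. The 8 genes of the central protuberance, the crown of the large subunit, which in mammals holds a transfer RNA, were all negative with a median of -0.45. All 4 tested stalk genes were negative with a median of -0.40, and 5 of 6 exit tunnel genes were negative with a median of -0.41. Proteins named as mitochondria-specific in the ribosome nomenclature (27 of 29 negative, median -0.33) and those with a bacterial counterpart (40 of 43 negative, median -0.37) were side by side. Among the landmarks, MRPL12 had -0.44, MRPL10 -0.26, MRPL45, which anchors the exit tunnel to the inner membrane, -0.34, and MRPL58, a peptidyl-tRNA hydrolase that rescues stalled ribosomes, -0.59. MRPS18A had -0.31, MRPS18B -0.31, MRPS18C -0.12 and MRPS30 0.03, with adjusted p-values of these landmarks between 0.182 and 0.948 (edgeR).

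In the colon the same comparison gave no call. Of the 73 genes 69 had a negative log2 change with NCG, with a median of -0.28 and an interquartile range of -0.43 to -0.16, whereas the median over all 15075 tested genes was 0.06 and 43.3% were negative. No member and 0% of all genes passed an adjusted p of 0.05 in edgeR, and DESeq2 called 11 members, all lower (with 1.53% of all genes lower and 1.77% higher in that test). At an unadjusted p under 0.05 there were 24 members, all lower, against 12.4% of all genes (7.63% higher and 4.73% lower). The libraries did not overlap for 5 members, all lower with NCG (MRPL48, MRPL19, MRPS26, MRPS15 and MRPL57), against 0.683% of all genes that separated in the lower and 0.425% in the higher direction.

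MRPL48, a protein of the central protuberance, had the smallest p. It read 28.1, 36.8 and 32.3 CPM in colon LF, 29.6, 24.4 and 23.9 in HF, 18.3, 17.2 and 15.1 in LN, and 16.4, 18.6 and 23.1 in HN. All libraries with NCG lay below all libraries without it, by a narrow gap between HN 3 and HF 3. The log2 change was -0.63 ± 0.13 (SE, adjusted p = 0.200, edgeR). MRPL52 had -0.60 ± 0.14 (adjusted p = 0.217, edgeR) and MRPL3, near the peptidyl transferase centre, -0.48 ± 0.13 (adjusted p = 0.255, edgeR).

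MRPL57 was the 1 member whose libraries with and without NCG stood apart in both tissues. Of all genes 1.77% separated in the lower direction in the ileum and 0.683% in the colon. The share of all genes that did so in both tissues was not counted, so how unusual MRPL57 is cannot be said. In the colon it read 14.0, 12.3 and 15.7 CPM in LF, 14.4, 11.8 and 11.6 in HF, 10.3, 7.25 and 9.76 in LN, and 7.05, 5.45 and 11 in HN. The log2 change was -0.61 ± 0.18 (SE, adjusted p = 0.274, edgeR), so the colon difference did not pass the test. MRPL1 had 0.33 ± 0.24 in the colon (adjusted p = 0.613, edgeR), with LF 2 at 43.5 CPM as the highest library of all, and MRPS5 (0.11) and MRPS18C (0.09) were the next positive members.

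The central protuberance genes were again all negative in the colon, 8 of 8 with a median of -0.48. The large-subunit genes had a median of -0.31 (47 of 48 negative) and the small-subunit genes one of -0.23 (21 of 24 negative). MRPL58 had -0.40, MRPS30 -0.39, MRPL45 -0.24, MRPS18A -0.23, MRPL10 -0.15, MRPL12 -0.12, MRPS18B -0.09 and MRPS36 -0.08, with adjusted p-values of at least 0.410 in edgeR.

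Member by member, the central protuberance genes read as follows (log2 change with NCG in ileum, then colon). MRPL55 had -0.60 and -0.53, MRPL58 -0.59 and -0.40, MRPL38 -0.53 and -0.46, and MRPL46 -0.46 and -0.44. MRPL48 had -0.43 and -0.63, MRPL18 -0.41 and -0.27, MRPL40 -0.33 and -0.62, and MRPL27 -0.30 and -0.50. Of the 8 genes 5 in the ileum and 6 in the colon had an unadjusted p under 0.05 (edgeR), and MRPL38, MRPL46, MRPL48 and MRPL55 did so in both tissues. Of all 73 members 31 did so in the ileum and 24 in the colon. The shares of all genes were 21.5% in the ileum (9% lower) and 12.4% in the colon (4.73% lower). At the exit tunnel MRPL17 (-0.48 and -0.38), MRPL24 (-0.45 and -0.27), MRPL22 (-0.43 and -0.34), MRPL23 (-0.39 and -0.36) and MRPL45 were negative in both tissues, whereas MRPL47 had opposite signs (0.35 and -0.15).

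Among the small-subunit genes the most negative with NCG were MRPS26 (-0.56 in ileum and -0.51 in colon), MRPS2 (-0.55 and -0.23), MRPS21 (-0.50 and -0.30) and MRPS15 (-0.46 and -0.52). Close to 0 were MRPS6 (0.03 and -0.02), MRPS5 (-0.02 and 0.11), MRPS33 (-0.02 and 0.02) and MRPS9 (-0.03 and -0.05). MRPS26 overlaps GNRH2 on the same strand over 0.325% of its span, and reads of the 2 genes that fell there may have been shared. None of these 8 passed an adjusted p of 0.05, and whether the subunits differed in their change was not tested.

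Across tissues, 64 of the 73 members were negative with NCG in both, against 34.0% of the 14634 genes tested in both tissues. MRPL1 was positive in both and 8 members had opposite signs, and 18 members were lower at an unadjusted p under 0.05 in both, against 2.04% of those genes. The tissues used different libraries, but the labels do not say whether the sows were the same. The difference of the NCG effect, colon minus ileum, had a median of 0.01 over the members, and 0 members and 0% of all genes passed an adjusted p of 0.05 in edgeR, with 0 members at an unadjusted p under 0.05 against 2.99% of all genes. The difference ran from -0.54 (MRPL47) to 0.28 (MRPS2), with MRPS30 at -0.46 and MRPL42 at -0.31 (adjusted p = 1 each, edgeR).

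**Figure D3:**
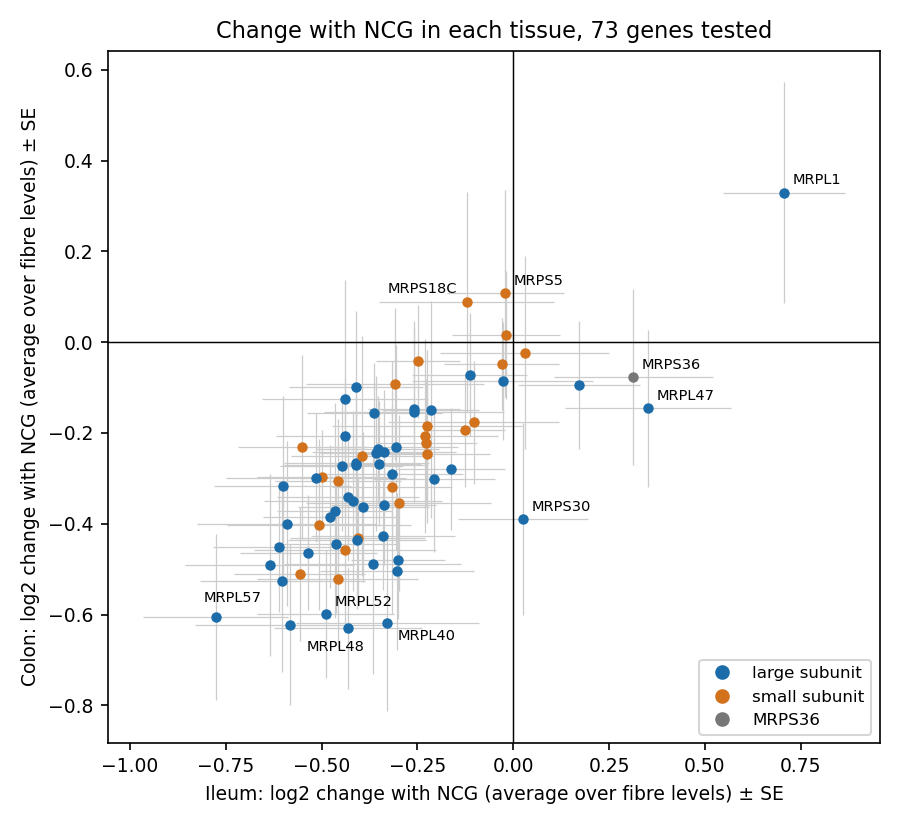
Log2 change with NCG in the ileum (horizontal) and in the colon (vertical) for the 73 tested genes, with standard errors as grey bars. The points crowd the lower left corner, where 64 genes are negative in both tissues, and MRPL1 (0.71 in ileum, 0.33 in colon) stands alone at the upper right.

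Gene length moved with these values. Over all tested genes the change with NCG ran with length, from a median of -0.26 in the shortest decile to 0.21 in the longest decile in the ileum, and from -0.17 to 0.35 in the colon. Of the members, 34 fell in the shortest decile in each tissue, where their median was -0.41 for ileum and -0.37 for colon, below that of all genes of that decile. Across the 73 members the Spearman correlation of length and log2 change was 0.414 for ileum and 0.356 for colon, a description over genes that share libraries. MRPL1, the member called higher in the ileum, was the second-longest, and MRPS30, the longest, had 0.03 in the ileum and -0.39 in the colon.

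With the trend on length removed, the member median was -0.23 in the ileum against -0.08 for all genes, with 62 of 73 negative, and -0.19 in the colon against -0.03, with 66 of 73 negative. No member was then called in the ileum, against 4.18% of all genes higher and 0.781% lower. MRPL1 had 0.36 (adjusted p = 0.206) and MRPL57 -0.61 (adjusted p = 0.0514) in edgeR under that setting. Other differences between the libraries that follow length, such as RNA quality, have no label and were not tested.

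**Figure D4:**
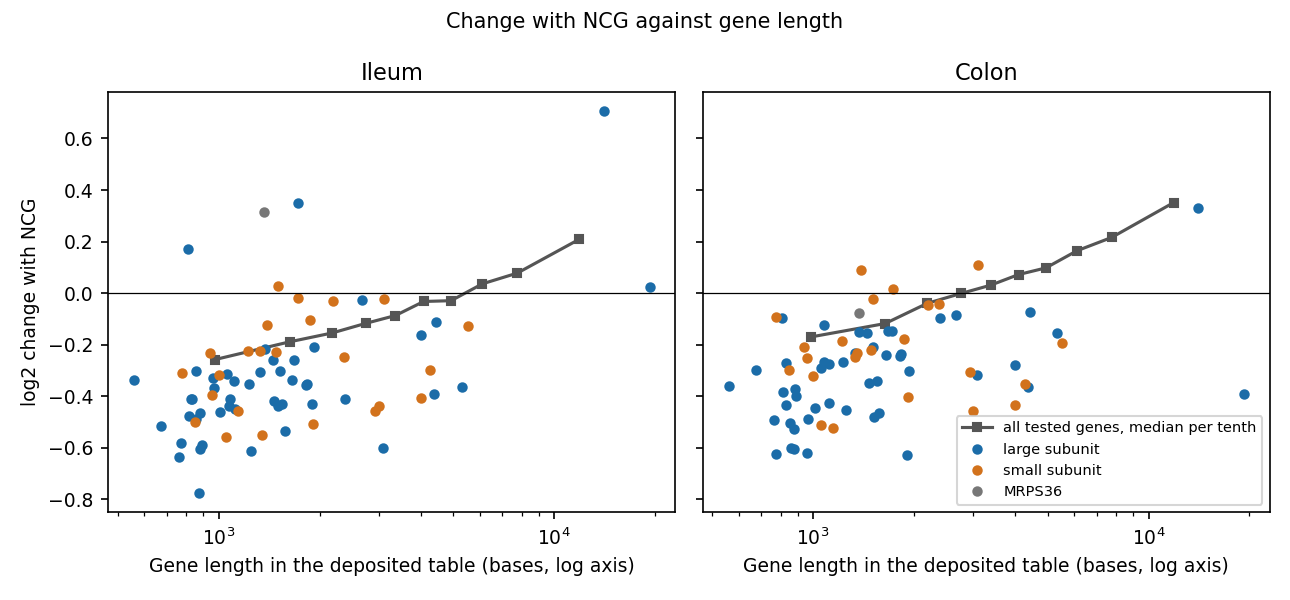
Log2 change with NCG against the deposited gene length (log axis) in the ileum (left) and colon (right); points are the 73 members and the grey line joins the medians of all tested genes in deciles of length. In the shortest decile the members have a median of -0.41 in the ileum and -0.37 in the colon, below the grey line at -0.26 and -0.17.

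The smooth muscle markers had opposite signs with NCG in the tissues. In the ileum all 9 smooth muscle markers were negative with NCG (median -0.73), and their summed level ran from 934.8 to 8876 CPM with NCG and from 1302 to 43200 CPM without it. In the colon 8 of 9 were positive (median 1.73), with sums from 1274 to 97960 CPM with NCG and from 1468 to 101900 CPM without it. The 8 enterocyte markers had medians of -0.09 for ileum (sums of 1375 to 10410 CPM with NCG and 4841 to 10800 without) and -0.0048 for colon (319.2 to 7120 with and 115.2 to 11590 without). Of the adipocyte markers 5 of 5 tested were positive in the ileum (median 3.37), but only 1 library with NCG was high. This was LN 3, with a sum of 5158 CPM, and the others with NCG had 80.33 CPM or less. The median sum was 69.94 CPM with NCG and 86.05 CPM without it, where the highest was 130.4 CPM. Of the 5 markers of dividing cells 4 were negative in each tissue (medians -0.46 and -0.35). No marker of these lists passed an adjusted p of 0.05 with NCG (edgeR). Their part in the members' lower values was not tested beyond the fits that follow. The covariates were the mean log2 CPM of the smooth muscle and of the enterocyte markers, not their sums. With them the members' median with NCG was -0.27 for ileum and -0.29 for colon. In the colon 15 members then passed, all lower, against 3.02% of all genes lower and 7.79% higher in that fit. Without the 3 ileum libraries high in FABP6 the members' median was -0.35 with no member called (3.83% of all genes higher and 0.133% lower). Without the 2 colon libraries low in VIL1 it was -0.30 with none called (2.94% higher and 0.119% lower).

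The other genes of the pathway did not all share the direction. Of 52 tested genes for mitochondrial translation outside the MRPL and MRPS symbols (initiation, elongation, release and recycling factors, aminoacyl-tRNA synthetases, assembly factors, ribosomal proteins with other symbols and the insertase OXA1L), 36 were negative and 16 positive with NCG in the ileum, with a median of -0.18. There 2 were called higher and 1 lower, against 5.42% and 0.43% of all genes. METTL15, a methyltransferase of the small-subunit ribosomal RNA, rose from 2.83 ± 0.567 CPM in LF and 4.28 ± 1.08 in HF to 8.80 ± 2.81 in LN and 7.69 ± 0.734 in HN (SD, n = 3), a log2 change of 1.25 ± 0.23 (adjusted p = 0.00936, edgeR). GFM2, which splits the ribosome after termination, rose by 0.71 ± 0.17 (adjusted p = 0.0327, edgeR). CHCHD1, a small-subunit protein, fell by 0.58 ± 0.15 (log2, adjusted p = 0.0462, edgeR), and 4 of the 5 ribosomal proteins with other symbols were negative. In the colon 33 of the 52 were negative with a median of -0.08 and none was called by edgeR. There 6 had an unadjusted p under 0.05, against 12.4% of all genes. In that tissue METTL15 had 0.94 ± 0.36 (adjusted p = 0.334), GFM2 0.60 ± 0.26 (adjusted p = 0.377) and CHCHD1 -0.30 ± 0.10 (adjusted p = 0.304), all in edgeR.

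Of 7 genes for mitochondrial transcription and RNA stability, 3 rose and 1 fell with NCG in the ileum. The shares of all genes called there were 5.42% higher and 0.43% lower. The members of this list that rose were MTERF1 (1.19 ± 0.19, adjusted p = 0.00482), TFAM, which packages mitochondrial DNA (0.63 ± 0.14, adjusted p = 0.0285), and LRPPRC (0.62 ± 0.14, adjusted p = 0.0295), all in edgeR. SLIRP, which forms a complex with LRPPRC on mitochondrial messages, fell by 0.68 ± 0.15 (log2, adjusted p = 0.0264, edgeR). Against the same shares of all genes, 1 of 9 regulators of mitochondrial biogenesis rose and none fell. This was GABPA, a transcription factor that acts on many nuclear genes for mitochondrial proteins, which rose by 1.04 ± 0.20 (adjusted p = 0.0124, edgeR). Of 13 genes encoded in mitochondrial DNA, 10 were positive in the ileum with a median of 0.10, and ND2 rose by 1.05 ± 0.25 (adjusted p = 0.0343, edgeR).

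Nuclear genes of the respiratory chain and ATP synthase were negative in 62 of 63 cases in each tissue, with medians of -0.44 in the ileum and -0.37 in the colon, and none was called. Cytosolic ribosomal protein genes were negative in 78 of 79 cases in the ileum (median -0.29) and in 75 of 79 in the colon (median -0.15), and none was called. The members' medians of -0.35 and -0.28 lay between these.

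Fibre was compared as the average over both NCG levels (HF and HN against LF and LN). In the ileum 38 members were positive and 35 negative with a median of 0.01, and in the colon 50 were positive and 23 negative with a median of 0.05. No member and 0% of all genes passed an adjusted p of 0.05 in either tissue in edgeR. No member had an unadjusted p under 0.05, against 5.26% of all genes in the ileum and 4.59% in the colon, and no member's libraries separated (in the ileum 0.0397% of all genes did so upward and 0.0662% downward, in the colon 0.0995% and 0.0199%). The changes ran from -0.35 (MRPS36) to 0.35 (MRPS30) in ileum and from -0.25 (MRPL42) to 0.31 (MRPL10) in colon. By p-value the leading members in the ileum were MRPS30, MRPS18C (0.34) and MRPL54 (0.20) upward and MRPS33 (-0.26), MRPS36 and MRPS9 (-0.23) downward, with adjusted p-values between 0.803 and 0.805 (edgeR). In the colon they were MRPS18B (0.31), MRPL10 and MRPL14 (0.20) upward and MRPL42, MRPL35 (-0.24) and MRPL49 (-0.24) downward, each with an adjusted p of 0.836 (edgeR). The difference of the fibre effect between tissues had a median of 0.03. There 0 members passed an adjusted p of 0.05 and 0 had an unadjusted p under 0.05 (2.79% of all genes) in edgeR. All 9 smooth muscle markers were negative with more fibre in each tissue (medians -2.26 for ileum and -2.345 for colon). Of the 8 enterocyte markers, 4 were positive for ileum (median 0.0073) and all 8 for colon (median 0.72). None of these markers was called. With both lists as covariates the members' median turned to -0.059 for colon, with 45 negative. The ileum median was then 0.10, with 12 negative. The part of tissue composition in the fibre values was not tested further.

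The interaction asks whether the NCG effect depended on fibre. No member and 0% of all genes passed an adjusted p of 0.05 in either tissue in edgeR, and 1 member in each had an unadjusted p under 0.05, against 4.45% of all genes in the ileum and 15% in the colon. In the ileum this was MRPS36. It read 46.3, 35.6 and 47.1 CPM in LF, 79.9, 70.9 and 95.0 in LN, 60.8, 38.4 and 57.1 in HF, and 62.2, 28.7 and 34.4 in HN. Its 3 LN libraries lay above all other ileum libraries, which overlapped each other, and the interaction was -1.26 ± 0.42 (SE, adjusted p = 0.872, edgeR). In the colon it was MRPS21, a small-subunit protein, with 0.65 ± 0.21 (SE, adjusted p = 0.327, edgeR). Over the members the median interaction was -0.03 for ileum and 0.04 for colon. The smooth muscle markers had median interactions of 3.53 for ileum (8 of 9 positive) and 5.69 for colon (9 of 9). All 8 enterocyte markers were negative in each tissue (medians -0.88 and -2.11). None of these markers was called. With both lists as covariates the members' median interaction moved to 0.26 for ileum and 0.31 for colon. The part of tissue composition in the interaction was not tested further.

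HN against LF sets both supplements against neither, with 3 libraries each and the same LF and HN libraries as the averages above. In the ileum the members' median was -0.36 against -0.08 for all genes, and no member was called by edgeR against 1.88% of all genes, with 10 at an unadjusted p under 0.05 (13.1% of all genes). DESeq2 called 1 member each way, against 5.3% of all genes higher and 0.92% lower. The libraries did not overlap for 19 members that were lower and 3 that were higher, against 8.59% and 9.1% of all genes. MRPL57 had -0.99 (adjusted p = 0.104), MRPL49 -0.67 (adjusted p = 0.268) and MRPS26 -0.61 (adjusted p = 0.316), and on the positive side MRPL1 had 0.78 (adjusted p = 0.129), MRPS30 0.37 (adjusted p = 0.568) and MRPL47 0.31 (adjusted p = 0.733), all in edgeR. The landmarks ran from -0.52 (MRPL58) to 0.22 (MRPS18C), with MRPL12 at -0.36. In the colon the median was -0.26 against 0.05, no member and 0% of all genes were called by edgeR, 12 members had an unadjusted p under 0.05 (8.94% of all genes), and DESeq2 called 1 member, which was lower (0.602% of all genes lower and 0.853% higher). There 17 members were lower without overlap and none higher, against 5.61% and 4.12% of all genes, with MRPL48 at -0.73 (adjusted p = 0.398), MRPL57 at -0.83 (adjusted p = 0.470) and MRPL38 at -0.54 (adjusted p = 0.483). The leading positive members were MRPL1 (0.32), MRPS5 (0.24) and MRPS18B (0.21), with adjusted p-values between 0.794 and 0.830 (edgeR). MRPL12 had 0.18 (adjusted p = 0.890, edgeR). All 9 smooth muscle markers were lower in HN than in LF in each tissue (medians -2.69 for ileum and -0.83 for colon). Of the 8 enterocyte markers, 3 were higher for ileum (median -0.14) and all 8 for colon (median 0.65). None of these markers was called. With both lists as covariates the members' median shrank to -0.15 for ileum, whereas for colon it moved to -0.35. The part of tissue composition in these values was not tested further.

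Colon against ileum compared the 12 libraries of each tissue over all diets. The ribosomal protein genes went both ways, with 40 positive and 33 negative and a median log2 change of 0.01 (interquartile range -0.13 to 0.07). Past an adjusted p of 0.05, 4 members were higher in colon and 2 lower, against a background of 28.4% of all 15675 genes (12.5% higher and 15.9% lower). No member separated the libraries of the tissues, as 0.434% of all genes did in the higher and 0.925% in the lower direction.

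MRPL33 had the smallest p. It ran from 12 to 19.2 CPM in the ileum with a median of 14.2, and from 13.6 to 27.1 CPM in the colon with a median of 21.3 (12 libraries each). Every colon group mean lay above every ileum group mean except for that of LN, 17.4 ± 3.29 CPM, which matched ileum LF (17.4 ± 2.09, SD, n = 3). The log2 change was 0.49 ± 0.09 (SE, adjusted p = 0.000498, edgeR), and the call held without any 1 library.

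MRPL44, a large-subunit protein with a fold related to RNA-cleaving enzymes, ran from 19.2 to 31.8 CPM in the ileum with a median of 26.7, and from 19.1 to 52.5 in the colon with a median of 37.1. It was higher by 0.52 ± 0.14 (SE, adjusted p = 0.0105, edgeR), with the lowest colon library, HN 1, below the lowest ileum library. MRPL35 was higher by 0.30 ± 0.09 (adjusted p = 0.0237, edgeR) and lost its call without colon LN 1 (adjusted p = 0.0528), without the 2 colon libraries low in VIL1 (adjusted p = 0.0638), without the 3 ileum libraries high in FABP6 (adjusted p = 0.0786) and with smooth muscle and enterocyte covariates (adjusted p = 0.139).

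MRPS6, a small-subunit protein, was higher by 0.53 ± 0.15 (adjusted p = 0.0153, edgeR), with 13.3 to 32.1 CPM in the ileum and 19.4 to 37.7 in the colon. Its span on chromosome 13 holds SLC5A3, the gene of a myo-inositol transporter, on the same strand, and SLC5A3 was itself higher in the colon by 1.04 (adjusted p = 0.00208, edgeR). How reads were shared between the 2 genes was not tested, so the value of MRPS6 is uncertain. Without the 3 ileum libraries high in FABP6 its adjusted p was 0.0656.

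MRPL40, another central protuberance protein, was the member most reduced in colon. It ran from 18.9 to 57.4 CPM in the ileum with a median of 42.4, and from 16.2 to 43.3 in the colon with a median of 27.2. The log2 change was -0.69 ± 0.16 (SE, adjusted p = 0.00298, edgeR), called without any 1 library. MRPL50 had -0.38 ± 0.13 (adjusted p = 0.0431, edgeR) and kept the call in 6 of the 24 fits that left out 1 library, with adjusted p-values up to 0.105 in the others. It also lost it under RLE scaling (adjusted p = 0.0580), without a filter on low counts (adjusted p = 0.0698, both edgeR) and by limma-voom (adjusted p = 0.0813). Its head-to-head neighbour across 80 bases, the zinc finger gene ZNF189, had 0.03 (adjusted p = 0.885, edgeR). The next lower members were MRPL54 at -0.31 (adjusted p = 0.0513) and MRPS18B at -0.38 (adjusted p = 0.0568), both in edgeR.

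The remaining landmarks differed little between tissues, with MRPL12 at -0.28, MRPL58 at -0.28, MRPL45 at -0.13, MRPS36 at -0.06, MRPS18A at -0.05, MRPL10 at 0.01, MRPS18C at 0.05 and MRPS30 at 0.05, and adjusted p-values of at least 0.170 in edgeR. The sign of MRPL10, MRPS18A, MRPS18C, MRPS30 and MRPS36 turned when single libraries were left out. Against this, all 79 tested cytosolic ribosomal protein genes were lower in colon, 64 of them past an adjusted p of 0.05, with a median of -0.35. Nuclear respiratory chain genes had a median of 0.09 with 3 called higher and 1 lower. Among the assembly factors METTL17, which helps to build the small subunit, was lower in colon by 0.90 on the log2 scale (adjusted p = 0.000217, edgeR). Of 52 other mitochondrial translation genes 2 were called higher and 5 lower. Of all genes, 12.5% were called higher and 15.9% lower in this comparison.

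The number of calls between tissues changed with the setting. All 9 smooth muscle markers were higher in colon, 8 of them past the threshold, with sums of 934.8 to 43200 CPM across ileum libraries and 1274 to 101900 CPM across colon libraries. Without the 3 ileum libraries high in FABP6, 2 members were called higher and 7 lower, against 10.6% and 14.2% of all genes, with 54 of 73 negative and a median of -0.08. With smooth muscle and enterocyte covariates 8 were higher and 1 lower, against 11.9% and 14.6%. With the length trend removed, 15 were higher and 1 lower, against 16.8% and 13% of all genes, and the members' median was 0.18 against 0.06 for all genes.

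**Figure D5:**
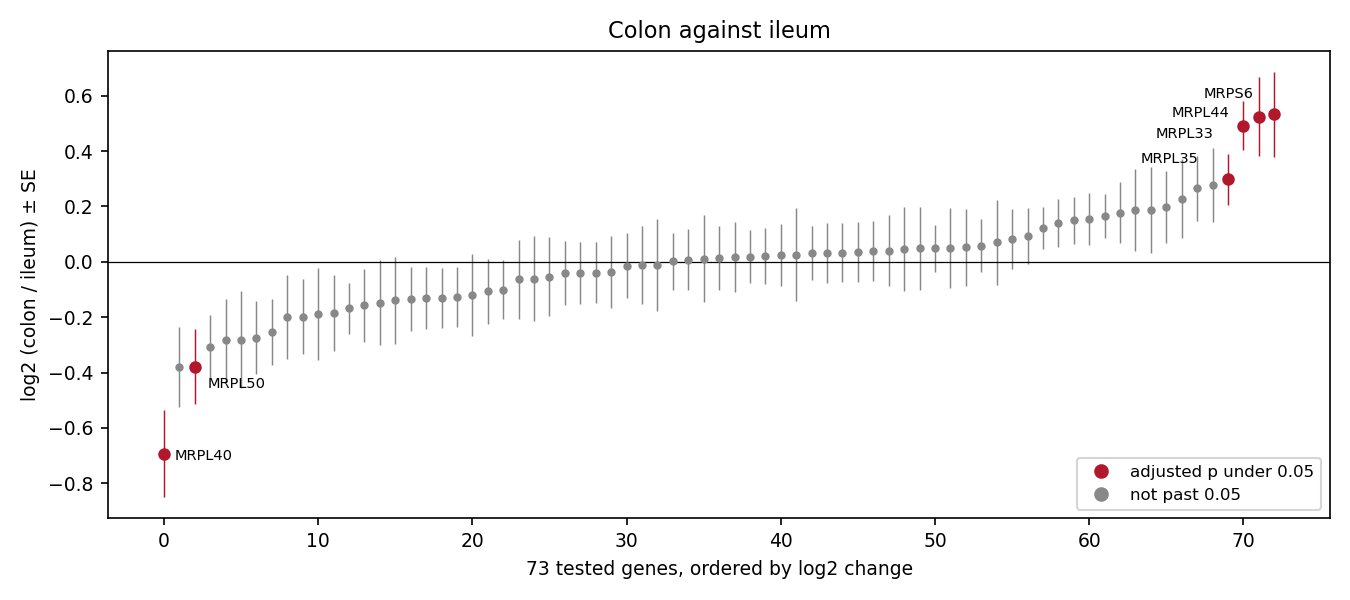
Log2 change of colon against ileum with its standard error for the 73 tested genes, in order of size; red marks an adjusted p under 0.05 (edgeR). MRPS6, MRPL44, MRPL33 and MRPL35 are higher in colon (0.53 to 0.30), MRPL40 (-0.69) and MRPL50 (-0.38) lower; the other 67 did not pass, among them MRPS18B at -0.38.

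Head-to-head neighbours were read beside the members for the change with NCG in the ileum. Of the 18 members whose neighbour was tested, 14 had a negative value together with their neighbour. MRPS11 and MRPL46 are neighbours of each other and were counted from each side. Since 67 of the 73 members were negative, most such pairs start from a negative member, and a link between neighbours was not tested. MRPL46 had -0.46 and MRPS11 -0.22. MRPL18 had -0.41 and TCP1 -0.35, and MRPL51 had -0.58 and NCAPD2 -0.41. By contrast MRPL30 had -0.41 and its neighbour MITD1 0.58 (adjusted p = 0.235 and 0.237, edgeR), and MRPL50 had -0.03 while ZNF189 rose by 0.83 (adjusted p = 0.0105, edgeR). Members that overlap another gene (median -0.34, 14 of 17 negative) and those that do not (median -0.36, 53 of 56 negative) had similar medians.

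The members varied within a tissue by a median coefficient of variation of 24% in the ileum and 23.1% in the colon (12 libraries each, over the 73 genes). The steadiest were MRPS22 in the ileum, with 8.54% and a 1.33-fold span from lowest to highest library, and MRPS9 in the colon, with 9.28% and a 1.40-fold span. The most variable were MRPS36 in the ileum (36.9%, 3.32-fold) and MRPL36 in the colon (35.4%, 3-fold). These values were taken over all 4 diets of a tissue, so they hold any differences between diets as well as the spread within groups.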

How the data were processed

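Libraries were made from oligo(dT)-selected RNA with random priming, per the labels' protocols. The submitters' processing notes name the tools HTSeq 0.9.1, HISAT2 2.1.0 and fastp 0.22.0 and the build Sscrofa 11.1. The deposited table holds raw whole-number read counts per gene. The deposited FPKM values equal count scaled by length and library total within a relative difference of 2.10e-07 and were not used further. Gene length came from the same table, and symbols and positions matched RefSeq of Sscrofa11.1 for all 76 members.

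Counts were fitted in R 4.3.3 with edgeR 4.0.16 (filterByExpr, TMM, quasi-likelihood F-test, Benjamini-Hochberg over all genes), with 4 diet means per tissue or 8 group means over all 24 libraries. The fits were tested on simulated data. Alternatives were DESeq2 1.42.0, limma-voom (limma 3.58.1), RLE scaling, no filter, removal of the length trend by loess offsets, marker covariates, a replicate block and left-out libraries. The alternative without colon libraries low in VIL1 was chosen after seeing the data.

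The members, lists and markers were chosen with earlier results of these data known. Named members were those past the threshold in a comparison or else the 3 per sign with the smallest p, together with fixed landmarks, of which MRPS12 was not analysed here. For levels they were the 5 highest and 5 lowest per kilobase. Other members were named outside this rule. They were picked by place in the ribosome, size of change among small-subunit genes, libraries that did not overlap, gene length, spread, or neighbouring genes.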

Additional observations from a re-analysis of the deposited data

How the results depend on the processing

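With an adjusted threshold and 3 libraries a group, the calls depended on the setting more than the signs did. For NCG in the ileum, DESeq2 called 8 members lower (3.33% of all genes) and edgeR without a filter called 0 lower (0.181%). There 0 members were called either way with the length trend removed (4.18% of all genes higher and 0.781% lower). The same held without the libraries high in FABP6 (3.83% higher and 0.133% lower). For NCG in the colon, DESeq2 called 11 lower (1.53% of all genes) and the marker covariates 15 lower (3.02%). For HN against LF, DESeq2 called 1 higher (5.3% of all genes) and 1 lower (0.92%) in the ileum and 1 lower in the colon (0.602%). Between tissues the number called higher was 15 with the length trend removed (16.8% of all genes), 8 with covariates (11.9%) and 2 without the libraries high in FABP6 (10.6%). The number called lower was 7 without those libraries (14.2% of all genes). It was 1 under RLE scaling (14.5%), no filter (12.4%), limma-voom (14.1%), the length setting (13%) or covariates (14.6%). It was also 1 without the colon libraries low in VIL1 (14.3%). The cause was not tested, except that settings leaving out libraries have fewer samples.

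The median interaction of the members moved to 0.26 in the ileum and 0.31 in the colon with covariates, and to 0.30 in the colon with the length trend removed.

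With 1 library left out at a time, the members called for NCG in the ileum ranged from 0 to 1 higher and from 0 to 5 lower. The 5 were called without LN 1, against 1.14% of all genes lower. Over these fits 3.31% to 5.38% of all genes were called higher and 0.0259% to 1.14% lower. Those for HN against LF in the ileum ranged from 0 to 1 lower (1 without LN 3, against 0.0589% of all genes). Members lower in colon than in ileum ranged from 1 to 5. There were 5 without ileum HN 2 (15.7% of all genes lower), and 4 without HF 2 (14.5%) or LN 3 (17%).

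Signs turned for members whose change was small. With the length trend removed, NCG in the ileum gave 0.030 for MRPS18C and -0.35 for MRPS30, NCG in the colon gave -0.046 for MRPL1, 0.052 for MRPS18B and 0.013 for MRPS36, HN against LF gave 0.15 for MRPS36 in the ileum and 0.051 for MRPS18A in the colon, and colon against ileum gave 0.042 for MRPL45, 0.12 for MRPS18A and 0.15 for MRPS36. With covariates, colon against ileum gave 0.10 for MRPL12 and 0.26 for MRPS18A, and HN against LF gave 0.35 for MRPS36 in the ileum, and -0.032 for MRPS18B, -0.074 for MRPS5, -0.34 for MRPL12 and 0.017 for MRPS36 in the colon. Without the libraries high in FABP6, the values were -0.029 for MRPS30 (NCG, ileum), 0.25 for MRPS36 (HN against LF, ileum) and -0.0033 for MRPS30 (colon against ileum). Without the colon libraries low in VIL1, MRPS18A had 0.084 (colon against ileum) and 0.060 (HN against LF, colon) and MRPS18C 0.0027 (HN against LF, colon). By limma-voom MRPL10 had -0.0036 (colon against ileum).

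With 1 library left out, colon against ileum ranged from -0.018 to 0.091 for MRPL10, -0.15 to 0.036 for MRPS18A, -0.022 to 0.12 for MRPS18C, -0.040 to 0.13 for MRPS30 and -0.13 to 0.033 for MRPS36. NCG in the colon ranged from -0.28 to 0.040 for MRPL12, -0.12 to 0.20 for MRPS18C, -0.22 to 0.037 for MRPS36 and -0.013 to 0.24 for MRPS5, and NCG in the ileum from -0.10 to 0.12 for MRPS30. HN against LF ranged from -0.44 to 0.18 for MRPS36 in the ileum, and in the colon from -0.081 to 0.34 for MRPL10, -0.13 to 0.53 for MRPL12, -0.39 to 0.27 for MRPS18A, -0.54 to 0.14 for MRPS30 and -0.38 to 0.042 for MRPS36.

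Libraries share replicate numbers across diets, and correlations between libraries did not settle whether the numbers mark a pairing. Deviations of same-numbered libraries from their group means had correlations of -0.53 to 0.71 (ileum) and -0.52 to 0.82 (colon). In each tissue 4 of 12 libraries correlated best with a library of their own number. Same-numbered ileum and colon libraries of a diet had correlations of -0.37 to 0.31. With the replicate number as a block, NCG in the ileum gave 0 members higher and 0 lower, against 4.26% and 0.146% of all genes. Between tissues the block joined same-numbered ileum and colon libraries of a diet. Colon against ileum then gave 5 members higher and 1 lower, against 7.47% and 11.7% of all genes, and MRPL10 had -0.0067. Under the block the members' median with NCG was -0.36 for ileum and -0.28 for colon.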
